A study of Mus musculus with 2 samples.

Results

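The 10 genes described here encode proteins that bring glucose, pyruvate and lactate into the cell or pass them on, together with a transcription factor that responds to glucose. They are the glucose transporter genes Slc2a1 and Slc2a3, the monocarboxylate transporter gene Slc16a1, the 3 phosphofructokinase genes Pfkl, Pfkm and Pfkp, the lactate dehydrogenase genes Ldha and Ldhb, the pyruvate dehydrogenase gene Pdha1 and Mlxip, which encodes MondoA. They were taken by gene symbol, and all 10 were found among the 23418 rows of the deposited count table. The set was selected on gene symbol with the counts and ratios of these libraries in view, so its ratios are given as a description and carry no test.

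The embryos were of the C57BL/6 background and carried an injected siRNA, either against Dnmt1 (siDnmt1), the enzyme that maintains DNA methylation, or scrambled (siScrambled). Each group is 1 library made from 20 pooled embryos of the 4 to 8-cell stage, so the spread between pools is not known. Messenger RNA was captured on oligo-dT beads and its cDNA amplified by 20 cycles of PCR before library construction. The siDnmt1 library held 12236615 counts and the siScrambled library 11675483, of which Rn45s, the ribosomal RNA precursor, took 37.3% and 29.9%. Dnmt1 itself had 687 counts in siDnmt1 embryos and 847 in siScrambled embryos, 1.23-fold lower (95% interval of counting error 1.11 to 1.37). All 8 markers of preimplantation embryos had counts in both libraries, summing to 6478 and 9840, and all 6 oocyte markers did, with 173 and 150. Of 15 cumulus and granulosa cell markers, 12 were at 0 in both libraries, and the sums were 9 and 0. All 7 sperm markers were at 0, and 2 of 4 blood markers were at 0 in both, with sums of 16 and 8.

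The cleaving mouse embryo is known for its fuel preference. Up to compaction it takes up pyruvate and lactate and burns them in mitochondria, uses little glucose, and turns to glucose as the blastocyst forms. Monocarboxylate transporters carry pyruvate and lactate across the membrane, lactate dehydrogenase converts the one into the other, and pyruvate dehydrogenase makes acetyl-CoA for the tricarboxylic acid cycle. Phosphofructokinase commits sugar to glycolysis. MondoA, with its partner Mlx, binds E-box-like motifs of genes such as Txnip and Arrdc4 when glucose phosphates rise.

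Because MondoA binds such motifs, the 250 bases before each annotated transcript start were searched for the E-box CACGTG, which reads the same on both strands. They were also searched for 2 E-box-like sites at the spacing of a carbohydrate response element, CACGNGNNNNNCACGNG on either strand, whose sites can themselves be an E-box. Of the 10 genes, 9 had at least 1 window in the RefSeq promoter table (GRCm38.p6), 13 windows in all. The E-box lay in 1 window each of Slc16a1, Pfkm and Ldha, and in 6.02% of the 32851 windows of the table. The paired motif lay in 0 of the 13 windows, in the window of Txnip, and in 15 windows of the table (0.0457%). The 5 windows that follow hold these matches, shown in capitals, and belong to 3 of the 10 genes and to 2 known targets of MondoA.
Slc16a1: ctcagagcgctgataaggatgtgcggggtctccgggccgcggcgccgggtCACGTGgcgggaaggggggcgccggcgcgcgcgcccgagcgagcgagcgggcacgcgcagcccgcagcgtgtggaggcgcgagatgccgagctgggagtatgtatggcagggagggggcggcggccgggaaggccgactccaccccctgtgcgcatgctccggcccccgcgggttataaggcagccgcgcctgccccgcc
Pfkm: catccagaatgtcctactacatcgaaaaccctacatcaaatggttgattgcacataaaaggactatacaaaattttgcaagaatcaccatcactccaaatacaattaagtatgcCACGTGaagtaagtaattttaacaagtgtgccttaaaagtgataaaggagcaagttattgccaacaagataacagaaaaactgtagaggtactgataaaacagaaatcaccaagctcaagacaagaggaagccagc
Ldha: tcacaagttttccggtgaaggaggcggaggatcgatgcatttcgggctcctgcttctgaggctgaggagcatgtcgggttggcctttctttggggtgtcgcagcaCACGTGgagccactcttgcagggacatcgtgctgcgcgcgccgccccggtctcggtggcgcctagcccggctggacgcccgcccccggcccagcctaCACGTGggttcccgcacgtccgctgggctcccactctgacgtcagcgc
Txnip: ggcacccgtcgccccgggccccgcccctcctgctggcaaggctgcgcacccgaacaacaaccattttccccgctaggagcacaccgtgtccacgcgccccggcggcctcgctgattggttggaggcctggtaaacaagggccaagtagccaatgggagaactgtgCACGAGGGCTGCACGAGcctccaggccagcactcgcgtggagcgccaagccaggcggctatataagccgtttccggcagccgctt
Arrdc4: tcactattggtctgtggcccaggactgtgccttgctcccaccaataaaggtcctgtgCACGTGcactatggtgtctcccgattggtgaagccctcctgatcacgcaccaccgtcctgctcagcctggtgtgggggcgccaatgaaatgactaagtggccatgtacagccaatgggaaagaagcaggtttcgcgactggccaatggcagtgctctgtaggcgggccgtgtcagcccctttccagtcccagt
On GRCm38.p6 these are chr3:104638414-104638663 on the plus strand for Slc16a1, chr15:98092339-98092588 on the plus strand for Pfkm (the first of 4 windows), chr7:46845554-46845803 on the plus strand for Ldha (the first of 2), chr3:96557707-96557956 on the plus strand for Txnip and chr7:68749239-68749488 on the minus strand for Arrdc4. The E-box began 200 bases before the start in Slc16a1, 136 in Pfkm and 193 in Arrdc4. Ldha held 2, the first of them 145 bases before the start. The paired motif of Txnip, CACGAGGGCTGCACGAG, began 85 bases before the start. A match describes the letters only, and binding was not measured. The windows of the set also differed in CpG dinucleotides, the substrate of Dnmt1, with a median of 6 over all windows. That of Slc16a1 held 37, the first of Ldha 25, that of Mlxip 19 and the first of Pfkm 2. The second of Ldha held 9 and the other windows of Pfkm 6, 10 and 3. Those of Pfkp, Pdha1, Ldhb, Slc2a1 and Pfkl held 16, 15, 14, 13 and 13. Methylation of these windows was not measured here.

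Counts were compared as log2((siDnmt1 + 5)/(siScrambled + 5)) over the 7315 genes averaging 20 counts or more, and a fold is the plain count ratio. All 10 genes passed that minimum. On the log2 scale 2 of the 10, Mlxip and Slc16a1, were at least 2-fold higher in siDnmt1 embryos, where 12.5% of all genes compared were. Another 3, Pfkm, Slc2a1 and Ldha, were at least 2-fold lower, where 16.7% of all genes were. The remaining 5 lay within 2-fold, and the median log2 ratio of the 10 was -0.27 against -0.02 over all genes. These shares are not read as evidence about the set, because its members were chosen with their ratios known. Intervals cover counting error only, and amplified copies cannot be told from separate molecules.

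**Figure D1:**
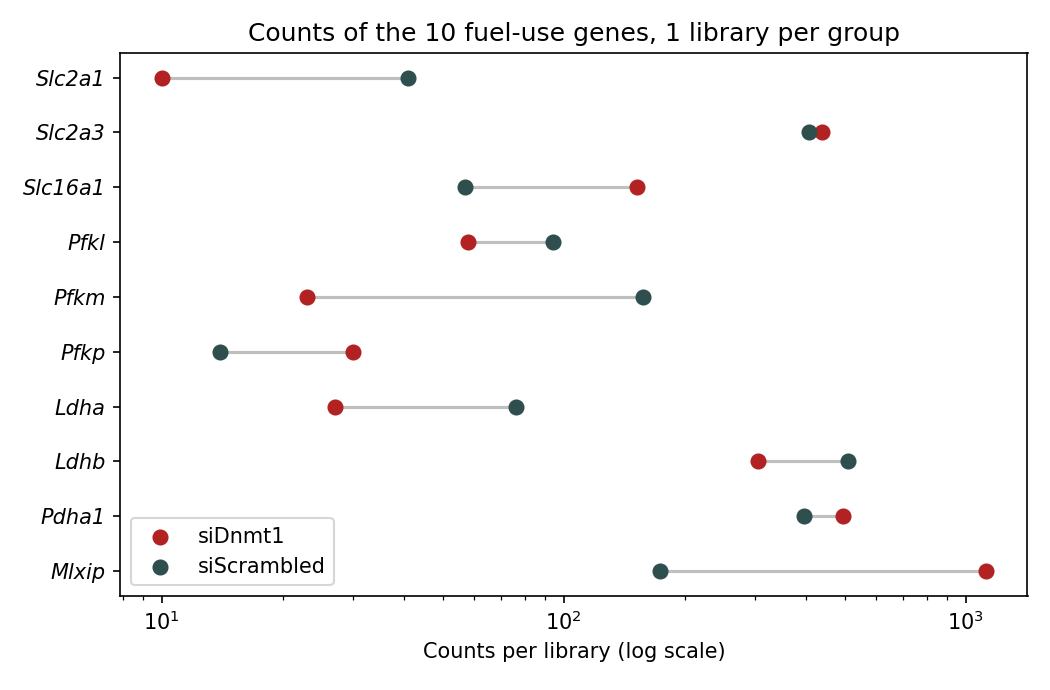
Counts per library (x axis, log scale) of the 10 genes (y axis), with 1 point per library and a grey line joining them. Mlxip stood at 1126 in siDnmt1 and 174 in siScrambled, and Pfkm at 23 and 158.

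Glucose entry was represented by a pair of facilitative transporters. Slc2a3, which encodes the high-affinity transporter GLUT3, had 440 counts in siDnmt1 embryos and 407 in siScrambled embryos. The ratio of 1.08 had an interval of 0.943 to 1.24, which includes equality. Slc2a1, which encodes the widely expressed transporter GLUT1, had 10 counts in siDnmt1 embryos and 41 in siScrambled embryos. It was 4.10-fold lower (2.02 to 9.18), and its log2 ratio of -1.62 lay low in the table, with 7.33% of the compared genes at or under it. In bulk RNA, fewer cells expressing a gene and less RNA per cell cannot be told apart.

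Per kilobase of its longest transcript, Slc2a3 stood far above Slc2a1 in both libraries, at 70.4 counts per kb against 3.07 in siDnmt1 embryos and at 65.1 against 12.6 in siScrambled embryos. Slc2a3 therefore made up 95.8% of the per-length level of the pair in siDnmt1 embryos (interval 92.5 to 98.0) and 83.8% in siScrambled embryos (78.9 to 88.0). The summed counts of the pair were 450 and 448. The difference of Slc2a1 thus concerned the minor transcript of the pair. Exons of an antisense gene, Gm12868, overlap those of Slc2a1, and whether reads were counted by strand is not stated in the labels or headers, so reads of the overlap cannot be assigned.

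Of the other glucose transporters, 2 reached the minimum, and both had fewer counts in siDnmt1 embryos. Slc2a8, which encodes the transporter GLUT8, had 143 counts in siDnmt1 embryos and 240 in siScrambled embryos, 1.68-fold lower (1.36 to 2.08). Slc2a12 had 0 and 57 counts, at least 19.0-fold lower when the siDnmt1 library is set at a floor of 3 counts. That floor leaves out the counting error of the siScrambled library, and the 95% interval starts at 15.0-fold. Its exons overlap those of Tbpl1 on the opposite strand, which had 2 counts in siDnmt1 embryos and 44 in siScrambled embryos, and the part of that overlap in the difference was not tested. Of the 13 glucose transporter genes listed, 7 had no count in either library and 4 reached the minimum. Of those 4, 0 were 2-fold higher and 2 were 2-fold lower or more, where 12.5% and 16.7% of all genes were. Slc2a1, 1 of the 2, was chosen with its ratio known.

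Slc16a1 encodes MCT1, a proton-linked carrier of pyruvate and lactate. It had 152 counts in siDnmt1 embryos and 57 in siScrambled embryos, 2.67-fold higher (1.95 to 3.68). Its log2 ratio of 1.34 was reached or exceeded by 6.79% of the genes compared. Per length its level was 34.3 counts per kb in siDnmt1 embryos and 12.9 in siScrambled embryos, which placed it at percentile 48.8 and 22.1 of the genes compared within each library. Bsg, which encodes basigin, the chaperone that brings this carrier to the cell surface, had 15 and 37 counts, 2.47-fold lower (1.32 to 4.84). After removal of the trend of log2 ratios with transcript length its log2 ratio was -0.48, inside 2-fold, and it also lay inside 2-fold with a pseudocount of 20 and at equal totals without Rn45s.

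Few other carriers of these acids were measured well. Only Slc16a1 and Bsg of the 10 listed genes reached a mean of 20 counts. Slc16a3, which encodes MCT4, had 1 count in each library, and Slc16a7, which encodes MCT2, had none. Slc5a12 and Slc5a8, named after their values were seen, had 0 counts in siDnmt1 embryos against 34 and 13 in siScrambled embryos. Their intervals of counting error start at 8.73-fold and 3.05-fold lower. Slc16a8 went the other way with 16 and 10 counts, but the interval of its fold higher, 0.683 to 3.94, includes equality. Emb had 10 counts in each library. The mitochondrial pyruvate carrier genes Mpc1 and Mpc2, named here after their values were seen, had 5 and 3 counts in siDnmt1 embryos against 12 and 19 in siScrambled embryos. For Mpc1 the interval of the fold lower, 0.787 to 8.70, includes equality. Mpc2 was 6.33-fold lower (1.86 to 33.4).

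**Figure D2:**
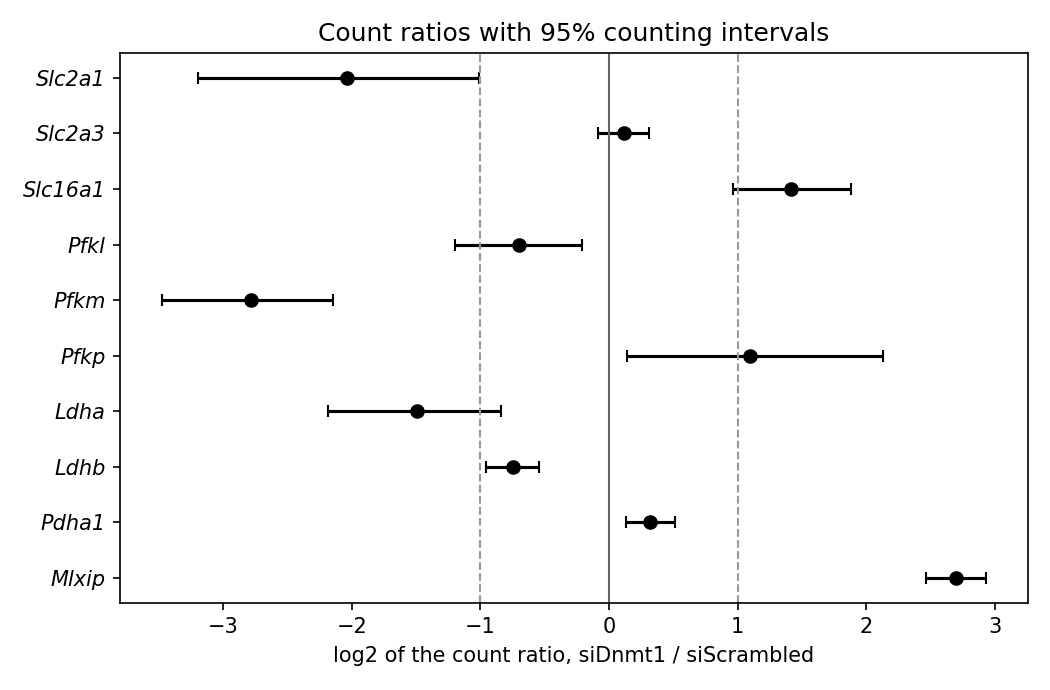
The log2 ratio of counts, siDnmt1 over siScrambled (x axis), for each gene (y axis), with 95% Clopper-Pearson intervals of counting error as bars and dashed lines at 2-fold. The interval of Mlxip lies above the upper line and that of Pfkm below the lower line, while that of Slc2a3 spans 0.

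The phosphofructokinase genes encode the liver (Pfkl), muscle (Pfkm) and platelet (Pfkp) subunits, which assemble into tetramers. Pfkm had 23 counts in siDnmt1 embryos and 158 in siScrambled embryos. It was 6.87-fold lower (4.42 to 11.2), and 2.31% of the compared genes shared or undercut its log2 ratio of -2.54. Pfkl had 58 and 94 counts, 1.62-fold lower (1.16 to 2.29). Pfkp went the other way with 30 counts in siDnmt1 embryos and 14 in siScrambled embryos, 2.14-fold higher (1.10 to 4.37), but its log2 ratio with the pseudocount was 0.88 and stayed under the 2-fold rule.

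The subunit with the highest level therefore differed between the libraries. In siDnmt1 embryos Pfkl led with 15.5 counts per kb, followed by Pfkm with 7.99 and Pfkp with 3.46. In siScrambled embryos Pfkm led with 54.9 counts per kb, followed by Pfkl with 25.2 and Pfkp with 1.61. Pfkm made up 29.6% of the per-length level of the family in siDnmt1 embryos and 67.2% in siScrambled embryos. As a share of the raw counts it was 20.7% (13.6 to 29.5) and 59.4% (53.2 to 65.4).

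The order depends on the transcript length used. With the median transcript length of each gene, Pfkl led in both libraries, and Pfkm held 6.51% in siDnmt1 embryos and 27.0% in siScrambled embryos. The lower share of Pfkm in siDnmt1 embryos does not depend on the length chosen, because it follows from the counts. Each gene has the same length in both libraries, and Pfkm had the lowest count ratio of the family. The 3 genes summed to 111 counts in siDnmt1 embryos and 266 in siScrambled embryos, 2.40-fold lower (1.91 to 3.02). Exons of Pfkm overlap those of Senp1 on the opposite strand, which had 1362 and 2028 counts and was 1.49-fold lower. They also overlap those of Gm26513 on the same strand, a gene with no row in the count table. Exons of Pfkp overlap those of Pitrm1 on the opposite strand, with 6 and 19 counts. The part of these overlaps was not tested.

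**Figure D3:**
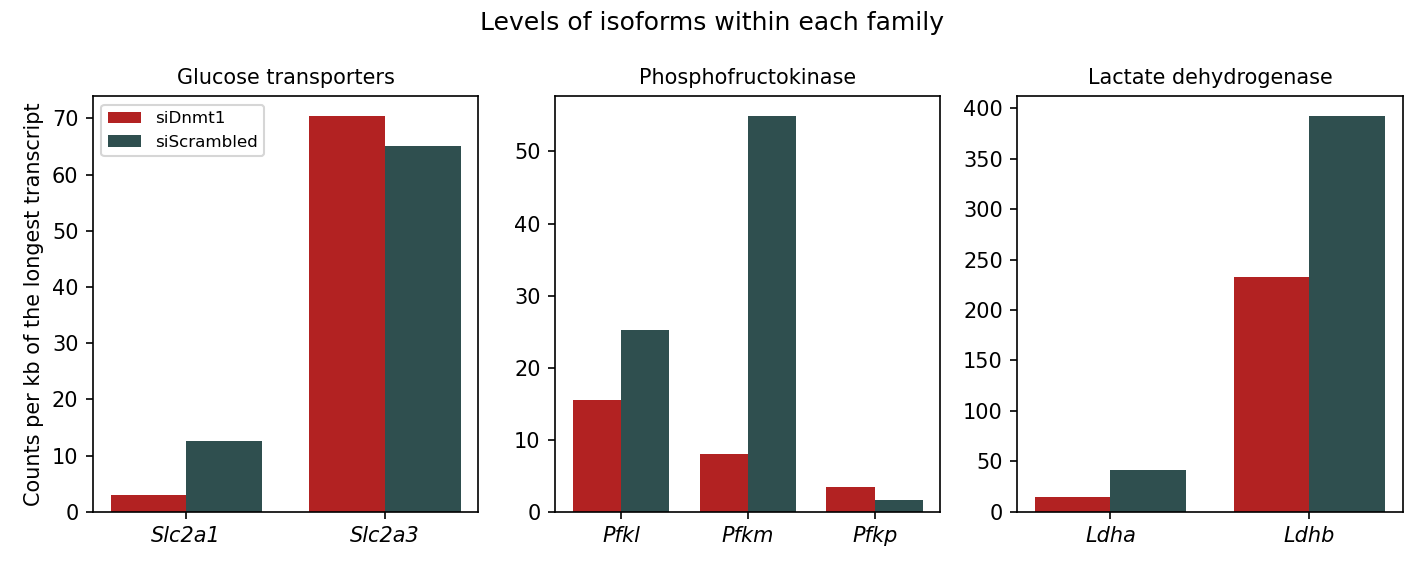
Levels in counts per kb of the longest transcript (y axis, from 0, a separate scale per panel) for the glucose transporters, the phosphofructokinase subunits and the lactate dehydrogenases, with the siDnmt1 library on the left of each pair of bars and no error bars because each group has 1 library. Pfkm is the highest of the 3 subunits in the siScrambled library at 54.9, and Pfkl in the siDnmt1 library at 15.5.

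Pfkfb3 and Pfkfb2 each had more counts than the 3 phosphofructokinase genes together, by raw counts not divided by transcript length. Pfkfb3, which makes the activator of phosphofructokinase fructose 2,6-bisphosphate, had 3170 counts in siDnmt1 embryos and 1369 in siScrambled embryos, 2.32-fold higher (2.17 to 2.47). Pfkfb2, of the same family, had 1280 and 660 counts and was 1.94-fold higher (1.76 to 2.13). G6pc3, a glucose 6-phosphatase, had 66 and 20 counts, 3.30-fold higher (1.98 to 5.75). Fbp2, a fructose bisphosphatase that runs the phosphofructokinase step in reverse, had 30 and 85 counts, 2.83-fold lower (1.85 to 4.45), but its log2 ratio was -0.62, inside 2-fold, after removal of the length trend. Of the 11 genes of this list, 6 were compared, with 2 at least 2-fold higher against 1 lower by as much.

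Among the 24 listed glycolytic genes, 11 were compared, 0 of them higher by 2-fold and 2 lower, Pfkm and Tpi1. Over all genes compared 12.5% were higher and 16.7% lower, and Pfkm was chosen with its ratio known. Hk1 and Hk2, the hexokinases that trap glucose in the cell, had 1219 and 379 counts in siDnmt1 embryos against 760 and 285 in siScrambled embryos. These were 1.60-fold (1.46 to 1.76) and 1.33-fold higher (1.14 to 1.56). Tpi1, triosephosphate isomerase, had 11 and 31 counts, 2.82-fold lower (1.38 to 6.21). Its log2 ratio was -0.64 after removal of the length trend, inside 2-fold, as it was with a pseudocount of 20. Some enzymes could not be followed in this table. Gapdh, named after its values were seen, had 0 counts in siDnmt1 embryos and 2 in siScrambled embryos, and 90 other annotated genes, 85 of them pseudogenes, hold at least 200 bases that match its transcript at 95% identity or more.

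Lactate dehydrogenase is a tetramer of A and B subunits. Ldhb encodes the B subunit, which predominates in the mouse egg and early embryo, and Ldha encodes the A subunit. Ldhb had 304 counts in siDnmt1 embryos and 511 in siScrambled embryos, 1.68-fold lower (1.46 to 1.94). Ldha had 27 and 76 counts, 2.81-fold lower (1.79 to 4.54). Both were lower in the siDnmt1 library, and Ldhb was the higher of the pair in each.

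Per length, Ldhb had 233 counts per kb in siDnmt1 embryos and 392 in siScrambled embryos, the highest level of the 10 genes in both by this length. By median transcript length Slc2a3 was above it in both libraries, at 767 and 709 counts per kb against 368 and 619, and Pdha1 in siDnmt1 embryos, at 730. Per kb of the longest transcript, Ldha had 14.9 and 41.9. Ldhb made up 94.0% of the per-length level of the pair in siDnmt1 embryos (91.3 to 96.0) and 90.3% in siScrambled embryos (88.0 to 92.3). These intervals overlap, which does not show that the shares are equal, and their difference was not tested. Summed, the pair had 331 and 587 counts, 1.77-fold lower (1.55 to 2.04). Near-identical sequence was found in 4 other genes for Ldha and in 1 for Ldhb, all pseudogenes, so counts of both are uncertain.

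Transcript length moved with the ratio of these genes. The 25% of genes with the shortest transcripts had a median log2 ratio of -0.43, and the 25% with the longest 0.18. Ldhb (1304 nt) and Ldha (1815 nt) have the shortest transcripts of the 10. After the trend with length was removed, the log2 ratio of Ldhb was 0.04, against -0.74 before, and that of Ldha was -0.96, against -1.34, so Ldha no longer reached the 2-fold line. For Pfkm and Slc2a1 the values after removal were -2.47 and -1.58, and for Mlxip and Slc16a1 they were 2.47 and 1.24.

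**Figure D4:**
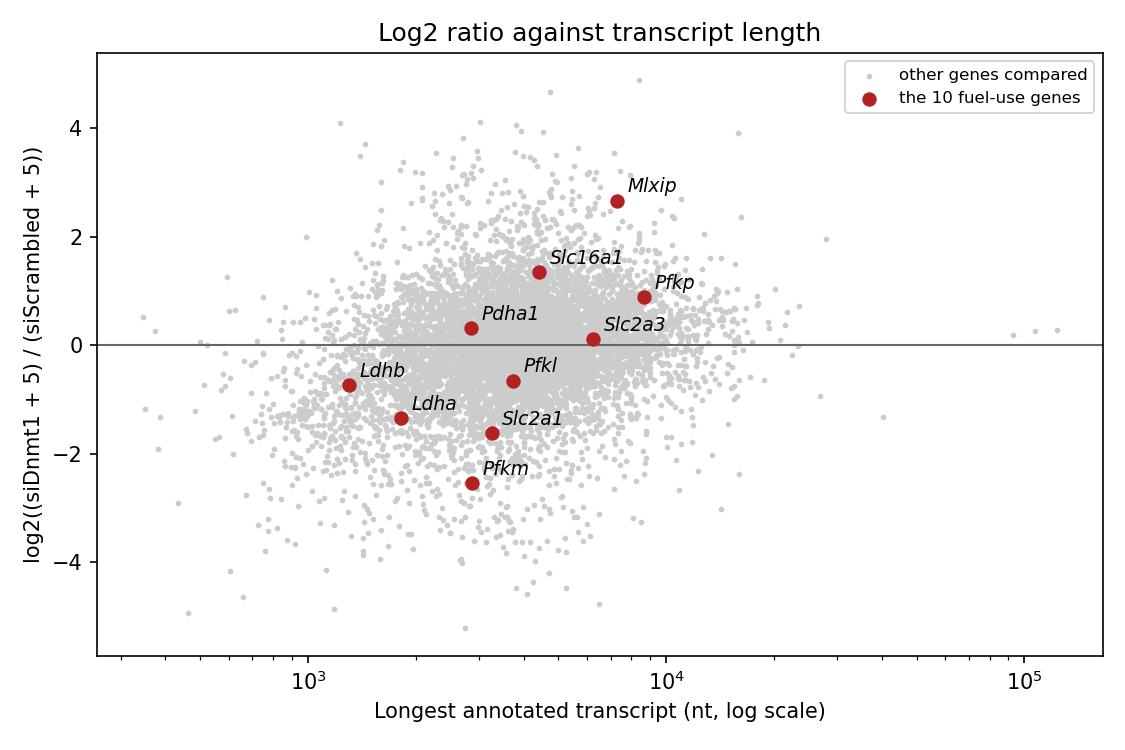
The log2 ratio of counts with a pseudocount of 5 (y axis) against the longest annotated transcript in nt (x axis, log scale) for the genes compared that have a length, with the 10 genes in red. Ldhb and Ldha lie at the short end, below 0, and Mlxip (7303 nt) and Pfkp (8681 nt) at the long end, above 0.

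Other enzymes that use pyruvate lay on both sides. Gpt2, a mitochondrial alanine transaminase, had 55 counts in siDnmt1 embryos and 9 in siScrambled embryos, 6.11-fold higher (3.0 to 14.1). Pcx, pyruvate carboxylase, had 20 and 46 counts, 2.30-fold lower (1.33 to 4.10). Its log2 ratio lay inside 2-fold with a pseudocount of 20 and at equal totals without Rn45s. Me1, the cytosolic malic enzyme, had 903 and 592 counts, 1.53-fold higher (1.37 to 1.70). With the lactate dehydrogenases, 5 of the 11 genes of this list were compared. Of these, 1 was 2-fold higher or more and 2 lower by as much, where 12.5% and 16.7% of all genes were. Ldha, 1 of the 2, was chosen with its ratio known.

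Pdha1 encodes the alpha subunit of pyruvate dehydrogenase, the component that decarboxylates pyruvate. It had 496 counts in siDnmt1 embryos and 397 in siScrambled embryos, 1.25-fold higher (1.09 to 1.43), and 174 against 139 counts per kb. Exons of Map3k15 overlap it on the opposite strand, with 22 and 70 counts. Its partners Pdhb, Dlat and Dld, the beta subunit and the later components of the complex, had 56, 26 and 24 counts in siDnmt1 embryos against 47, 27 and 19 in siScrambled embryos. Pdhx, the protein that anchors the dihydrolipoamide dehydrogenase component, stood apart from them with 73 and 281 counts, 3.85-fold lower (2.97 to 5.05). Pdp2, a phosphatase that activates the complex, had 2765 and 1596 counts, 1.73-fold higher (1.63 to 1.84). Of the 13 genes of the complex and its control, 8 were compared, and Pdhx was the 1 lower by 2-fold or more, with 0 higher. Over all genes compared 16.7% were lower and 12.5% higher by as much. The kinases that inhibit the complex, Pdk1 to Pdk4, had at most 12 counts in either library.

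Mlxip encodes MondoA, a basic helix-loop-helix factor. It had the most counts of the 10 genes in siDnmt1 embryos, 1126, and 174 in siScrambled embryos. It was 6.47-fold higher (5.51 to 7.64), and 1.07% of the compared genes shared or exceeded its log2 ratio of 2.66. Per length it had 154 counts per kb in siDnmt1 embryos and 23.8 in siScrambled embryos, at percentiles 79.8 and 36.6 of the genes compared. Exons of an antisense gene, Gm15747, overlap it.

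The DNA-binding partner and the known targets of MondoA had few counts. Mlx, Txnip and Arrdc4 were named after their values were seen. Mlx, without which MondoA does not bind DNA, had 49 counts in siDnmt1 embryos and 73 in siScrambled embryos, 1.49-fold lower (1.02 to 2.19). Txnip, whose product restrains glucose uptake and whose window holds the paired motif, had 34 and 21 counts, 1.62-fold higher with an interval of 0.913 to 2.94 that includes equality. Arrdc4, an arrestin-like relative of Txnip, had 9 counts in siDnmt1 embryos and 0 in siScrambled embryos. That is 3-fold higher when the siScrambled library is set at a floor of 3 counts. The floor leaves out the counting error of the siDnmt1 library, so 3-fold is not a lower bound. Arrdc4 was under the minimum mean count and was not compared. The 3 genes of the set with an E-box in 1 of their windows lay on both sides, with Slc16a1 higher and Pfkm and Ldha lower. Whether MondoA acts on any of them was not tested. Of the 15 genes listed for this network, 9 were compared. Of these, 2 were higher by 2-fold or more and 0 lower, where 12.5% and 16.7% of all genes were. One of the 2 was Mlxip itself, chosen with its ratio known, and of the 8 others compared 1 was higher, near the share of all genes. That gene was Mxi1, a Max-binding repressor, with 53 and 13 counts (4.08-fold, 2.19 to 8.15). Mga, another partner of Max, had 3645 and 1823 counts and lay just under the line.

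**Figure D5:**
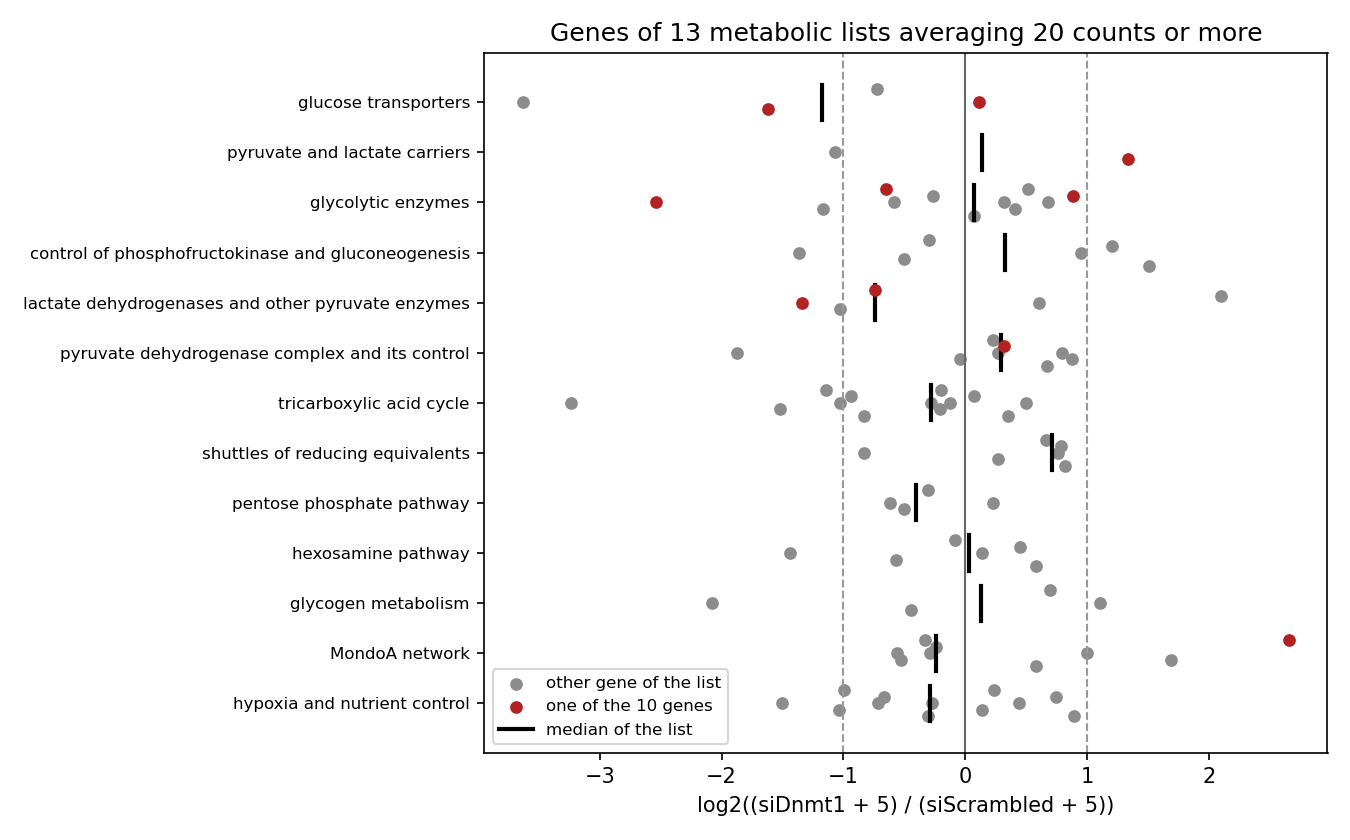
The log2 ratio of counts with a pseudocount of 5 (x axis) of each gene averaging 20 counts or more, by list (y axis), with the 10 genes in red, other genes in grey, list medians as black bars and dashed lines at 2-fold. The tricarboxylic acid cycle list has 4 genes at or past the lower line and 0 past the upper, and the shuttles list has 0 past either.

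Downstream of pyruvate dehydrogenase, the 13 tricarboxylic acid cycle genes compared had a median log2 ratio of -0.28, with 0 of the 13 higher by 2-fold and 4 lower, where 12.5% and 16.7% of all genes were. Suclg2, part of the succinyl-CoA ligase that acts on GDP, had 17 counts in siDnmt1 embryos and 202 in siScrambled embryos. Dlst, of the oxoglutarate dehydrogenase complex, had 202 and 452 counts, 2.24-fold lower (1.89 to 2.65). Sdhb, of succinate dehydrogenase, had 17 and 58 counts, and Idh3a, of isocitrate dehydrogenase, 48 and 103. Ogdh, which works in the same complex as Dlst, had 1719 and 1214 counts, 1.42-fold higher (1.32 to 1.53), and Idh3g had 584 and 1126, 1.93-fold lower (1.74 to 2.13). After removal of the length trend, Sdhb and Idh3a had log2 ratios of -0.67 and -0.91 and no longer reached 2-fold. Idh3a also lay inside 2-fold with a pseudocount of 20 and at equal totals without Rn45s.

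The shuttles that pass reducing equivalents from cytosol to mitochondria, which an embryo needs in order to use lactate, centred on a log2 ratio of 0.71, the median of 6 genes compared. Of the 6, 0 were 2-fold apart in either direction, where 12.5% of all genes were higher and 16.7% lower. Gpd2, the mitochondrial glycerophosphate dehydrogenase, had 4489 counts in siDnmt1 embryos and 2646 in siScrambled embryos, 1.70-fold higher (1.62 to 1.78). Mdh2, the mitochondrial malate dehydrogenase, had 560 and 999 counts, 1.78-fold lower (1.61 to 1.98). Over all 13 lists without the 10 genes, 79 of 154 genes were compared, and 5 were higher by 2-fold or more against 14 lower. These are 6.33% and 17.7% of the 79, against 12.5% and 16.7% of all genes compared, so the lower share was near that of all genes. Scaled to equal totals without Rn45s, the counts were 7 and 10, where all genes gave 1053 and 1093. After removal of the length trend they were 6 and 10, where all genes gave 938 and 1018.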

How the data were processed

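Counts per gene were taken as the authors deposited them, with 1 column per library, matched to its sample by name. The table is named as DESeq2-normalised, but every whole number from 1 to 59 occurs in both columns (0 missing in each), and from 2 to 30 none was over 1.23 (siDnmt1) or 1.29 (siScrambled) times as frequent as its neighbours on average. Scaling and rounding tend to leave gaps or pile-ups, so the values were treated as unscaled counts, although a factor very close to 1 would not show. DESeq2 size factors recomputed from the values were 1 in both libraries, which a table already scaled by DESeq2 would also give. Whether the values were scaled was therefore not settled. Trim Galore, HISAT2, HTSeq, DESeq2 and mm9 are named in the submitters' processing notes. For the annotation, the use of strand and reads that match several places, nothing is given in the sources used here.

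With 1 library per group edgeR could not be fitted, so no p-values are given. Ratios carry 95% Clopper-Pearson intervals of counting error. Lengths and overlapping exons come from GENCODE M21 (GRCm38; a length for 99.4% of the genes compared), near-identical transcripts from BLAST 2.17.0 and promoter windows from RefSeq. That build is not mm9, so no coordinate is set against the counts. The length trend was removed with a lowess curve (span 0.3).

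The 10 genes, the 13 pathway lists and the marker lists were chosen with earlier results of these data known. Genes named are the 10, the genes of each list at least 2-fold apart and the 2 with the highest mean count, or all genes compared where a list had fewer than 5. Others, among them Pdhb, Dlat, Dld, the Pdk genes, Slc16a3 and Slc16a7, were named after their values were seen. Alternatives were other pseudocounts (1 and 20), filters (none, mean of at least 100), scalings (equal totals, also without Rn45s and without Rn45s and Odc1, a median log2 ratio of 0, edgeR 4.0.16 TMM, DESeq2 1.42.0 size factors), removal of the length trend and other transcript lengths. The 2-fold rule and the intervals were tested on simulated counts with counting error only (Poisson). The simulation held no spread between pools and no amplified copies, so it cannot show how the rule performs with these.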

Additional observations from a re-analysis of the deposited data

How the results depend on the processing

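No paired analysis was possible because each group has 1 library. Over 11 alternatives, Slc2a1, Slc16a1, Pfkm and Mlxip kept their direction and stayed at least 2-fold apart wherever they were compared. Some alternatives could not move these ratios. The filters do not change the log2 ratio of a gene, and the recomputed DESeq2 size factors were 1 in both libraries. Ldha lay inside 2-fold after removal of the length trend, Pfkp reached it with a pseudocount of 1 (log2 ratio 1.05), and the log2 ratios of Slc2a3 and Ldhb changed sign after removal of the length trend (-0.05 and 0.04). With a mean of at least 100 counts Slc2a1, Pfkm, Pfkp, Pfkl and Ldha drop out by construction. Then 0 of the genes described were at least 2-fold lower, and over all genes 395 were higher and 482 lower, against 911 and 1221. Of the other pathway genes 1 was then higher and 6 lower. With no filter, 1682 and 2122 of all genes and 12 and 25 of the other pathway genes were 2-fold apart, since more genes enter. With a pseudocount of 20, 9 other pathway genes were lower, against 14. No scaling moved the median of all genes by more than 0.1 on the log2 scale.

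Shares within a family depend on the length used. By raw counts and by median transcript length, Pfkm held 20.7% and 6.51% in siDnmt1 embryos and 59.4% and 27.0% in siScrambled embryos. Ldhb held 87.1% and 85.8% in siScrambled embryos. Slc2a3 held 97.8% and 98.2% in siDnmt1 embryos and 90.8% and 92.3% in siScrambled embryos. By the longest APPRIS principal transcript, a length chosen after the data were seen, Slc2a3 held 89.1% in siScrambled embryos. Of the list medians, 130 of 143 values under the alternatives stayed within counting error and 13 did not. Of the list counts of genes 2-fold apart, 250 of 286 stayed within 1.5 times and 36 did not. Both totals include the recomputed DESeq2 size factors, which repeat the main values by construction. With 10 counts of Slc2a1 and 14 of Pfkp in their lower library, their folds are imprecise.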

Other observations

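Side branches of glucose use also held genes that differed between the libraries. In glycogen metabolism, Pygl, a glycogen phosphorylase, had 17 counts in siDnmt1 embryos and 88 in siScrambled embryos, 5.18-fold lower (3.06 to 9.28). Gyg, the glycogenin that primes glycogen, had 53 and 22 counts, 2.41-fold higher (1.44 to 4.16), and Gys1, a glycogen synthase, 133 and 80 counts. With a pseudocount of 20 the log2 ratio of Gyg lay inside 2-fold. Pgm2l1 had 94 and 130 counts. In the hexosamine pathway, Pgm3, a phosphoacetylglucosamine mutase, had 62 and 177 counts, 2.85-fold lower (2.13 to 3.88). The highest mean counts of this list were those of Mgea5 and Uap1. Mgea5, the enzyme that removes O-GlcNAc, had 13215 and 11986 counts, and Uap1, which makes the sugar donor, 1461 and 1550. The 4 genes of the pentose phosphate pathway that were compared lay within 2-fold, with G6pdx at 358 and 443 counts, Pgd at 1928 and 1642, Tkt at 309 and 440 and Taldo1 at 355 and 548.

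Among genes of oxygen and nutrient control, Egln1, a prolyl hydroxylase that marks hypoxia-inducible factor for degradation, had 281 counts in siDnmt1 embryos and 807 in siScrambled embryos, 2.87-fold lower (2.50 to 3.30). Stk11, the kinase that activates AMP-activated protein kinase, had 148 and 308 counts, 2.08-fold lower (1.71 to 2.55). Its log2 ratio lay inside 2-fold with a pseudocount of 20 and at equal totals without Rn45s. Vhl, the ubiquitin ligase subunit that acts after Egln1, had 2977 and 2187 counts, 1.36-fold higher (1.29 to 1.44), and Tsc1, a restrainer of mTOR, 2064 and 1110 counts, 1.86-fold higher (1.73 to 2.00). Of the 14 genes of this list, 12 were compared, 0 of them higher by 2-fold and 2 lower. Over all genes compared 12.5% were higher and 16.7% lower, so the lower share was near that of all genes. No explanation of these differences was tested.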
